A study of Mus musculus with 162 samples.

Results

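The cell-cycle and proliferation genes described here were 40 mouse genes, of 46078 genes counted in each library. They were chosen by name for their part in cell division and not by a cut on measured values, though earlier results of these data were known. Of the 40, 15 act in the G1/S step and in DNA replication (Ccne1, Ccne2, E2f1, E2f8, Mcm2 to Mcm7, Pcna, Rrm1, Rrm2, Tyms and Tk1) and 25 act in G2 and mitosis, among them Mki67, Top2a, Ccnb1, Cdk1, Cdc20, Bub1 and Plk1. All 40 were matched by Ensembl identifier, and all 40 were tested in each skin comparison. Poly(A) RNA of cheek skin, of the trigeminal ganglia that innervate it and of spinal cord was sequenced from mice treated once daily with MC903 (calcipotriol, a vitamin D analogue that brings on dermatitis and itch) or with its ethanol vehicle. The question for these genes was when, and in which groups, MC903-treated skin held more of their mRNA than ethanol-treated skin.

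All mice were adult males labelled C57BL/6, and all received either 0.2 mM MC903 in ethanol or ethanol alone, 20 µL at each treatment on the cheek. Uninjected wild-type skin was taken at day 1 (6 hours after the first treatment; 4 MC903 and 4 ethanol libraries), day 2 (3 and 2), day 5 (3 and 3) and day 8 (5 and 6). At day 8 there were also wild-type mice injected daily with 250 µg of aGr1, an antibody against Ly6G and Ly6C given to deplete neutrophils (4 and 4), and wild-type mice injected with its PBS vehicle (2 and 3). TSLPR.KO mice carry a whole-animal deletion of Crlf2, the receptor gene for the cytokine TSLP, and were sampled at day 8 (3 and 2) and day 12 (4 and 3). BLT1.KO mice carry a deletion of Ltb4r1, the leukotriene B4 receptor gene, and were sampled at day 8 (3 and 3). Uninjected wild-type libraries of day 8 carried labels of 2 styles, treated as cohorts A and B with a term for cohort in the fits of the MC903 effect. Ganglia came from the same kinds of groups except BLT1.KO, with 2 to 5 libraries per treatment. Cord came from wild-type mice at day 8, uninjected (4 and 5), PBS-injected (2 and 2) or aGr1-injected (8 and 6), which per the methods were treated with a larger volume on the back. The labels do not say which libraries came from separate animals, so p-values measure the spread between these libraries, which may be technical.

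Counts on genes ran from 17431296 to 67342879 per skin library, from 15931871 to 62105901 per ganglion library and from 21595429 to 50591655 per cord library. Crlf2 stood at 0.0692 to 1.34 cpm (the count of a gene scaled to the library's total count on genes) in TSLPR.KO skin and at 2.24 to 15.4 cpm in all other skin libraries. Ltb4r1 stood at 2.33 to 3.70 cpm in BLT1.KO ethanol skin and at 10.6 to 15.1 cpm in BLT1.KO MC903 skin. In uninjected wild-type skin of the same day Ltb4r1 stood at 6.66 to 10.5 and 33.5 to 77.6 cpm, so each BLT1.KO library was below that group, and no library was at 0. The BLT1.KO ethanol range overlapped with those of aGr1-injected wild-type (2.52 to 6.33 cpm) and TSLPR.KO day 12 (1.45 to 7.46 cpm) ethanol skin. The BLT1.KO MC903 range lay within that of TSLPR.KO day 12 MC903 skin (9.87 to 17.4 cpm). It also overlapped with uninjected wild-type MC903 skin of day 1 (7.74 to 13.4 cpm) and day 2 (14.7 to 28.7 cpm). Which part of Ltb4r1 is deleted is not given in the sources used here. The wild-type libraries labelled day 12 were left out.

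Cells that divide pass from G1 into DNA replication, then through G2 into mitosis. The E2F transcription factors switch on the genes of the first step, which include cyclin E (Ccne1, Ccne2), the MCM helicase subunits (Mcm2 to Mcm7), the sliding clamp Pcna and the enzymes that make deoxynucleotides (Rrm1, Rrm2, Tyms, Tk1). The genes of the later step are switched on afterwards by complexes that include MYBL2 and FOXM1, and code for the mitotic cyclins and their kinase Cdk1, the spindle checkpoint (Bub1, Bub1b, Cdc20), the Aurora and Polo kinases, kinesin motors, and centromere proteins. In skin the cells that divide most are basal keratinocytes of the epidermis and matrix cells of growing hair follicles, and sensory neurons do not divide.

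The members were abundant in skin and sparse in both neural tissues. As a level for each library, log2(cpm + 0.5) was averaged over members, which describes the libraries and was given no test. In the 30 ethanol skin libraries this level ran from 3.03 to 5.31, with a median of 4.60, and in the 31 MC903 skin libraries from 4.23 to 5.48, with a median of 5.08. It ran from 1.41 to 2.62 in the 56 ganglion libraries and from 1.30 to 2.08 in the 27 cord libraries, so no skin library overlapped with a neural one. The gap was widest for the G2 and mitosis members, whose level had a median of 1.02 in ganglia and 0.902 in cord, while the G1/S and replication members stood at 2.84 in both. Per kilobase of exon, 38 of the 40 members had a higher median in ethanol skin than in ganglia. The exceptions were Ccne1, at 1.89 cpm per kb in skin and 4.51 in ganglia, and E2f1, at 3.29 and 6.65. Against cord the exceptions among 40 were Ccne1 (4.70 cpm per kb in cord) and Tyms (2.75 in skin and 2.92 in cord). The highest skin medians per kilobase were those of Pcna (28.1 cpm per kb), Mki67 (18.1) and Top2a (16.9), which codes for the topoisomerase that untangles chromosomes.

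**Figure D1:**
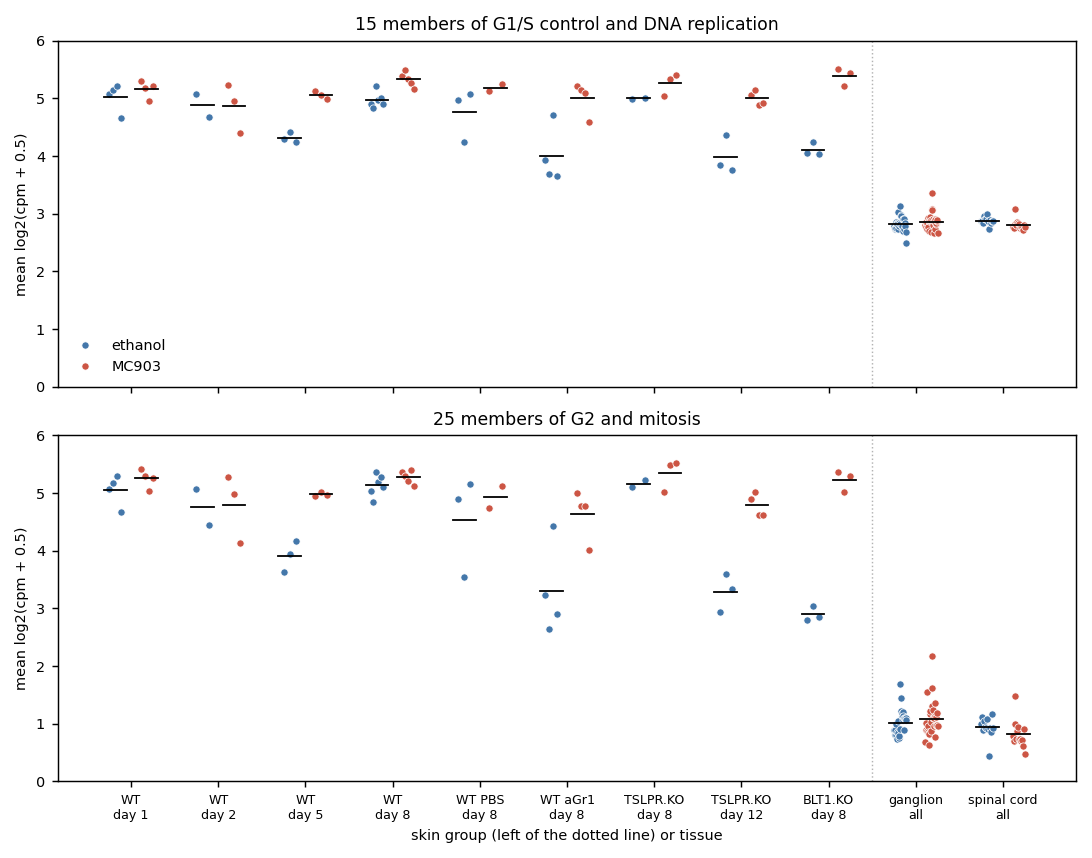
Level of the 15 G1/S and replication members (upper panel) and the 25 G2 and mitosis members (lower panel) in each library, as the mean over members of log2(cpm + 0.5), with blue points for ethanol, red points for MC903 and lines at group means. The ethanol skin libraries spread over 2.64 to 5.37 in the lower panel, while the MC903 skin libraries lie between 4.02 and 5.52 and the ganglia and cord lie at or under 2.17.

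The spread between libraries lay mainly in the ethanol skin. The SD of the member level was 0.778 over the 30 ethanol libraries and 0.304 over the 31 MC903 libraries. The ethanol libraries of BLT1.KO mice, aGr1-injected mice, TSLPR.KO mice at day 12 and wild-type mice at day 5 stood low. Those of uninjected wild-type mice at days 1 and 8 and of TSLPR.KO mice at day 8 stood as high as MC903 skin.

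At day 1 a single member passed the test in uninjected wild-type skin. Tk1, which codes for thymidine kinase of the salvage pathway, stood at 20.0, 20.3, 18.1 and 12.1 cpm in the ethanol libraries and at 32.1, 25.97, 21.3 and 27.5 cpm in the MC903 libraries. Each MC903 library was above each ethanol library, and the log2 fold change was 0.57 (SE 0.12, adjusted p = 0.0175, edgeR quasi-likelihood test, adjusted by Benjamini-Hochberg over every gene tested). That made 1 of 40 members higher and 0 lower, where 5.51% of all genes tested were called higher and 7.47% lower. In 2 members each MC903 library was above each ethanol library and in 0 below, as in 7.48% and 5.35% of all genes. The 40 had a median log2 fold change of 0.14, beside 0.00126 over all genes, and 12 had an unadjusted p under 0.05, as did 29.9% of all genes. Without MC903 replicate 1 or without ethanol replicate 3 the Tk1 call was lost and 0 members were called, and without ethanol replicate 1 there were 2.

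The other index genes at day 1 moved by less than the spread between libraries. Mki67, the proliferation antigen, stood at 299, 281, 369 and 236 cpm with ethanol and at 404, 395, 323 and 350 cpm with MC903 (log2 fold change 0.28, SE 0.12, adjusted p = 0.136). Top2a stood at 236, 257, 278 and 164 cpm with ethanol and at 288, 279, 245 and 252 cpm with MC903 (0.17, SE 0.11, adjusted p = 0.356). The ranges overlapped for both. Ccnb1, cyclin B1, was at 36.5 to 58.5 cpm with ethanol and 49.8 to 65.6 cpm with MC903, and Mcm5, a subunit of the replicative helicase, at 39.0 to 58.5 and 55.2 to 64.5 cpm. Rrm2, the regulated subunit of ribonucleotide reductase, was at 47.4 to 71.2 cpm with ethanol and 46.3 to 60.7 cpm with MC903 (−0.24, SE 0.08, adjusted p = 0.0833). E2f1, an activator of the G1/S genes, was at 7.64 to 14.3 cpm with ethanol and 9.97 to 13.2 cpm with MC903 (−0.09, SE 0.14, adjusted p = 0.719).

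At day 2 no member passed the test, and at an unadjusted p under 0.05 there were also 0, where 4.84% of all genes passed that level. The groups did not overlap in 1 member, Birc5, with MC903 above, as in 10.6% of all genes, and 8.9% of all genes had MC903 below. DESeq2 called 0 as well, and edgeR called 0% of all genes. Mki67 stood at 223 and 154 cpm with ethanol and at 341, 199 and 69.8 cpm with MC903. Top2a stood at 245 and 152 cpm with ethanol and at 371, 225 and 106 cpm with MC903. In both genes the MC903 libraries lay on both sides of the ethanol pair. MC903 replicate 3, the lowest of the MC903 libraries for Mki67, Top2a, Ccnb1 (75.9, 46.7 and 24.2 cpm), Mcm5 (52.4, 52.2 and 15.04 cpm) and Rrm2 (59.98, 45.01 and 29.03 cpm), was the highest for E2f1 (7.92, 9.71 and 13.3 cpm). The ethanol pair stood at 47.2 and 35.1 cpm for Ccnb1, 39.2 and 25.996 cpm for Mcm5, 72.8 and 44.1 cpm for Rrm2 and 11.96 and 8.95 cpm for E2f1. The 5 sensory neuron markers summed to 18.6 to 948 cpm over the MC903 libraries and to 15.6 to 18.1 cpm with ethanol, and replicate 3 held the highest mean level of them in all skin (7.19). The 4 glia markers summed to 112.002 to 2934 cpm with MC903 and to 109.9 to 122.5 cpm with ethanol. Their part in the values of that library was not tested.

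At day 5, 17 of the 40 members rose and 0 fell, where 8.15% of all genes were called higher and 6.78% lower. In 32 members each MC903 library was above each ethanol library, as was true of 20.7% of all genes. The median log2 fold change was 0.81, a 1.75-fold difference, beside −0.03 over all genes. The G2 and mitosis members had a median of 0.98 (11 of 25 called), and the G1/S and replication members a median of 0.46 (6 of 15 called).

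Mcm5 stood at 21.4, 19.3 and 20.4 cpm with ethanol and at 79.9, 74.3 and 66.3 cpm with MC903. The MC903 libraries were all above the ethanol ones, and the log2 fold change of 1.73 (SE 0.19, adjusted p = 0.00151) was the largest of the 40. Ccne1, cyclin E1, stood at 3.42, 4.86 and 4.30 cpm with ethanol and at 16.6, 16.02 and 11.2 cpm with MC903 (1.68, SE 0.27, adjusted p = 0.00726). Rrm2 stood at 29.9, 40.2 and 28.4 cpm with ethanol and at 78.5, 84.5 and 82.6 cpm with MC903 (1.22, SE 0.17, adjusted p = 0.00363). Among the mitotic genes Ccnb1 rose from 18.7, 22.04 and 25.8 cpm to 50.5, 49.5 and 49.8 cpm (1.02, SE 0.25, adjusted p = 0.0306). Top2a rose from 81.4, 103 and 110 cpm to 206, 222 and 213 cpm (0.98, SE 0.24, adjusted p = 0.0329). None of these genes had overlapping groups. The Polo kinase Plk1 (1.56), the survivin gene Birc5 (1.57), the mitotic kinase Cdk1 (1.49) and the checkpoint target Cdc20 (1.41) also rose. Mki67 did not pass: it stood at 72.3, 104 and 162 cpm with ethanol and at 141, 195 and 207 cpm with MC903, and its groups overlapped (0.49, SE 0.40, adjusted p = 0.456). E2f1 stood at 11.1, 10.1 and 7.16 cpm with ethanol and at 9.81, 8.34 and 7.24 cpm with MC903 (−0.24, SE 0.19, adjusted p = 0.444), the only member with a negative log2 fold change at this day.

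The count at day 5 depended on single libraries. Without ethanol replicate 3 it was 33 of 40, and without any other library (MC903 replicates 1, 2 and 3, ethanol replicates 1 and 2) it was 9 to 11, and Top2a and Ccnb1 then lost their calls. Ethanol replicate 3 held the highest Mki67, Top2a and Ccnb1 of its group. It also held the highest mean level of 10 markers of the hair matrix and growing follicle (8.08, against 5.6 and 5.52 in the other ethanol libraries), and the part of follicle content in the count was not tested. These 10 markers summed to 969 to 14093 cpm with ethanol and to 6648 to 22564 cpm with MC903, none was at 0 throughout, and 0 of 10 were called. All 4 keratins of injured or thickened epidermis (Krt6a, Krt6b, Krt16, Krt17) were called higher, with sums of 645 to 938 cpm and 20067 to 27798 cpm.

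**Figure D2:**
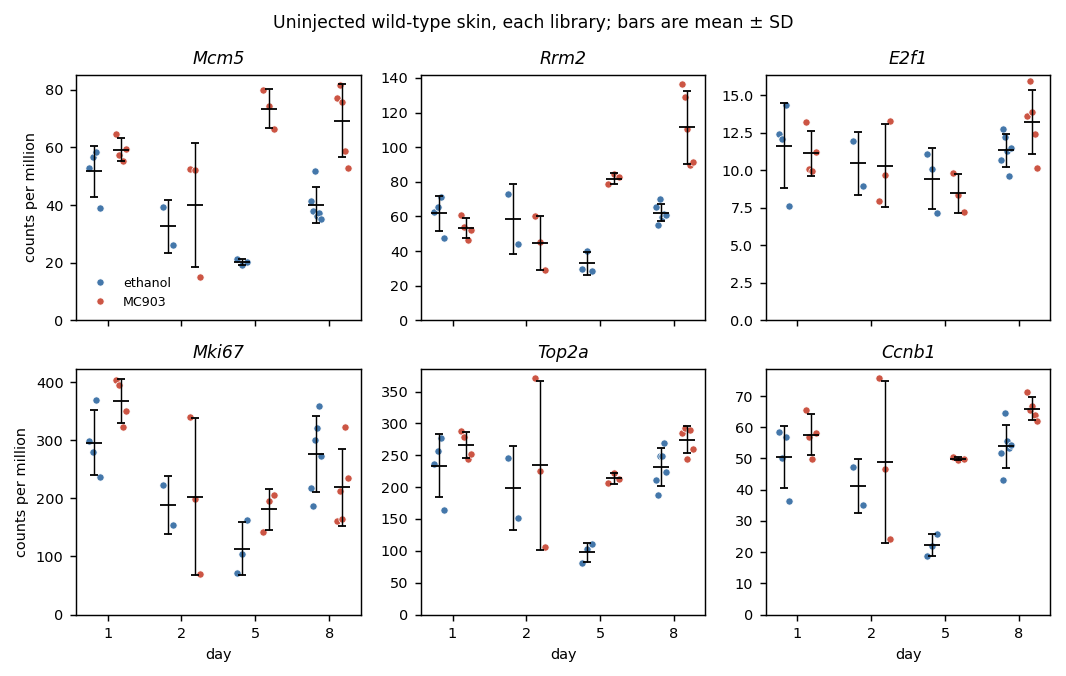
Level in cpm of 6 members in uninjected wild-type skin against the day of sampling, with blue points for ethanol libraries, red points for MC903 libraries and bars at the mean ± SD. Mcm5 and Rrm2 separate fully at days 5 and 8, Top2a and Ccnb1 separate at day 5, and E2f1 overlaps at each day.

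At day 8 fewer members were called than at day 5, and 30 of the 40 had a positive log2 fold change and 10 a negative one. The test called 10 of 40 higher and 1 lower, where 12.2% of all genes were called higher and 11.2% lower, 23.4% in all. Over the 40 the median log2 fold change was 0.22, beside −0.03 over all genes. Each MC903 library was above each ethanol library in 7 members and below in 0, as in 6.95% and 5.09% of all genes. Of the G1/S and replication members 5 of 15 rose (Ccne1, E2f8, Mcm4, Mcm5, Rrm2), and of the G2 and mitosis members 5 of 25 (Cdk1, Cdc20, Aurka, Plk1, Birc5).

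Rrm2 ran from 55.2 to 70.1 cpm in the 6 ethanol libraries, with a median of 61.3, and stood at 136, 128.7, 111, 89.97 and 91.7 cpm with MC903. The groups did not overlap, and the log2 fold change was 0.81 (SE 0.12, adjusted p = 0.000369). Mcm5 ran from 35.2 to 51.9 cpm with ethanol, with a median of 37.5, and stood at 77.2, 81.7, 75.9, 58.7 and 52.8 cpm with MC903 (0.75, SE 0.11, adjusted p = 0.000423). Ccne1 ran from 6.33 to 10.1 cpm with ethanol, with a median of 8.39, and stood at 20.2, 22.5, 18.2, 17.4 and 13.2 cpm with MC903 (1.09, SE 0.17, adjusted p = 0.000478). These groups did not overlap either. In the first 3 of the 5 values listed for each gene, from cohort A, the MC903 levels of Rrm2 and Mcm5 were above those of both cohort B libraries.

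The index genes of mitosis did not pass at day 8. Ccnb1 ran from 43.3 to 64.7 cpm with ethanol (median 53.9) and stood at 71.4, 65.6, 66.97, 64.1 and 61.9 cpm with MC903 (0.29, SE 0.12, adjusted p = 0.0944). Top2a ran from 188 to 269 cpm with ethanol (median 236) and stood at 286, 293, 244, 290 and 259 cpm with MC903 (0.26, SE 0.13, adjusted p = 0.162). Mki67 ran from 186 to 359 cpm with ethanol (median 287) and stood at 160, 213, 165, 323 and 236 cpm with MC903 (−0.30, SE 0.17, adjusted p = 0.219). Their groups overlapped. E2f1 ran from 9.60 to 12.7 cpm with ethanol (median 11.4) and stood at 13.6, 15.9, 13.9, 12.4 and 10.2 cpm with MC903 (0.20, SE 0.11, adjusted p = 0.222). Cenpf, a large kinetochore protein, was the member called lower, from 53.2 to 109 cpm with ethanol (median 81.8) to 45.2, 53.6, 40.3, 68.5 and 70.3 cpm with MC903 (−0.47, SE 0.15, adjusted p = 0.0434), with overlapping groups. Its call was lost without the cohort term, within either cohort alone, and without any of 7 single libraries: in cohort A the MC903 library labelled skin1, MC903 replicate 2 and the ethanol library labelled skin7, and in cohort B the MC903 replicates 1 and 2 and the ethanol replicates 1 and 2.

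The marker genes of growing follicles fell over the same libraries. At day 8, 9 of the 10 were called lower and 0 higher, with sums of 14219 to 64351 cpm with ethanol and 3629 to 20245 cpm with MC903. All 4 injury keratins (sums 1702 to 2978 cpm with ethanol and 14747 to 29327 cpm with MC903) and 5 of 6 neutrophil markers (11.002 to 18.4 and 71.8 to 379 cpm) were called higher. In bulk tissue fewer cells of a type and less RNA per cell cannot be told apart, and the part of any of these lists in the members' values was not tested.

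The difference between days was tested directly, as a difference between the MC903 effects. From day 1 to day 5 the effect grew in 14 of 40 members and shrank in 0, where 7.28% of all genes grew and 3.52% shrank. The largest differences were those of Mcm5 (1.57), Ccne1 (1.54) and Rrm2 (1.46), on the log2 scale. From day 5 to day 8 it was smaller in 4 members (Mcm5 −0.97, Cdc20 −0.84, Bub1 −1.29, Birc5 −1.04) and larger in 0, where 0.916% of all genes were smaller and 0.706% larger. From day 1 to day 8 it was larger in 5 (Ccne1 0.97, Mcm4 0.49, Mcm5 0.60, Rrm2 1.07 and Aurka 0.72) and smaller in 1 (Cenpf −0.83), where 11.2% of all genes were larger and 8.58% smaller. The first count was near its share and the second under it. The count of smaller effects was 2 without the day 8 ethanol library skin3, cohort B MC903 replicate 1 or cohort B ethanol replicate 3. These 3 tests share libraries between them. Without day 5 ethanol replicate 3 the counts that involve day 5 became 30 (day 5 against day 1) and 18 (day 8 against day 5), and the second was 0 without day 5 ethanol replicate 1 or 2, day 5 MC903 replicate 2 or the day 8 ethanol library skin7. It was 1 without day 5 MC903 replicate 1 and 2 without day 8 ethanol cohort A replicate 2.

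The 9 skin comparisons have no library in common, so their called members can be set side by side. The 10 members called higher at day 8 in uninjected wild-type skin were all called higher at day 5 (10 of 17 there), in aGr1-injected skin (10 of 21), in TSLPR.KO skin at day 12 (10 of 34) and in BLT1.KO skin (10 of 38, where nearly all members were called). In the other 4 comparisons (days 1 and 2, PBS and TSLPR.KO day 8) 0 of the 10 were called. Over the 9 skin comparisons 11 members were called higher in 5, namely these 10 and Tk1, and 2 members, E2f1 and Tyms, in 0. Calls shared between comparisons were not counted over all genes. The overlap is thus not shown to be particular to the members. Tyms codes for thymidylate synthase. The heat map of changes shows each member across the 9 comparisons.

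**Figure D3:**
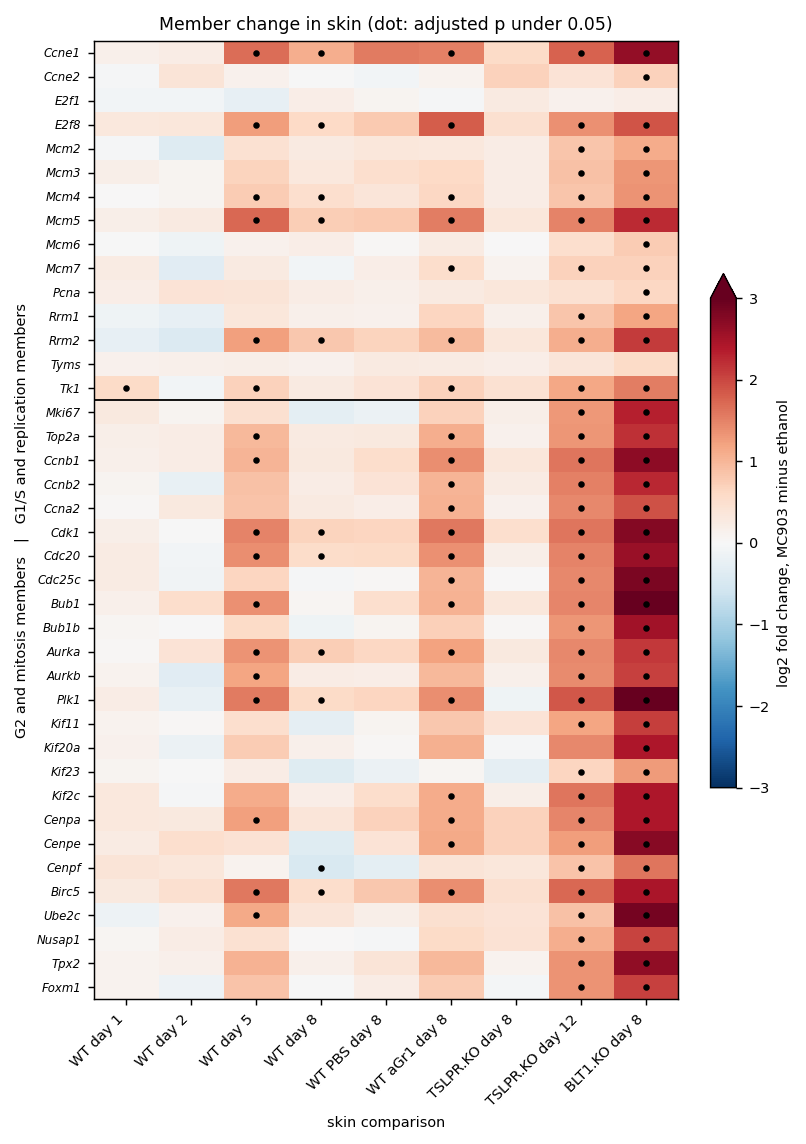
Log2 fold change of each of the 40 members (rows, with the 15 G1/S and replication members above the line and the 25 G2 and mitosis members below it) in each of the 9 skin comparisons of MC903 with ethanol (columns). Red is higher with MC903, blue is lower, the scale is capped at 3 in either direction, and a dot marks an adjusted p under 0.05, which holds for 38 of 40 members in BLT1.KO skin and for 0 in PBS-injected skin.

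Promoter sequence from RefSeq (GRCm38.p6) was at hand for 32 of the 40 members. In the 250 bases before each start, on both strands, 3 short motifs were looked for: CCAAT, the box bound by NF-Y, TTTGAA, the letters of the cell-cycle homology region (CHR) of mitotic genes, and 4 spellings of the E2F site (TTTGGCGC, TTTCGCGC, TTTCCCGC, TTTGGCGG). The motifs were counted apart, wherever they lay. TTTGAA was in 42.1% of the 19 windows of G2 and mitosis members, in 14.3% of the 14 windows of G1/S and replication members and in 16% of all 32851 windows. CCAAT was in 84.2%, 71.4% and 33.8%, and an E2F spelling in 5.26%, 21.4% and 1.96%. The sequences are stretches from 4 members called in 5 skin comparisons, a pair from each class chosen with their matches known, written 5′ to 3′ on the gene's strand with matches to the 3 motifs, or to their reverse complements, in capitals. They lie upstream of Ccne1 (chr7:38107535-38107684, minus strand), Mcm5 (chr8:75109359-75109508, plus strand), Cdk1 (chr10:69352939-69353088, minus strand) and Cdc20 (chr4:118437353-118437502, minus strand), outside the exons of GENCODE M21. Of the others called in 5 comparisons with an entry, Birc5 and Tk1 held no match in their stretch, Aurka and Rrm2 held CCAAT alone, and E2f8, of the G1/S class, held 1 CCAAT and 1 TTTGAA. Plk1 also had an entry, but no stretch outside exons that was long enough to take.
Ccne1: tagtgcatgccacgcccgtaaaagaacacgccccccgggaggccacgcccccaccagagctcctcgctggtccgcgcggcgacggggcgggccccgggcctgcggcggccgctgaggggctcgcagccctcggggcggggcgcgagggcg
Mcm5: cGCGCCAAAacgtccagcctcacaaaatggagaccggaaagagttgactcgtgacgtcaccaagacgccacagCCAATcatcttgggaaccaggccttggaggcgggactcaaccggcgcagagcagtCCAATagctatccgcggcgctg
Cdk1: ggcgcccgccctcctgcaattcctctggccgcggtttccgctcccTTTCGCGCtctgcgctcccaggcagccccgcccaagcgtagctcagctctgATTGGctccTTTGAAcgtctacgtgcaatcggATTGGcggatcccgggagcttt
Cdc20: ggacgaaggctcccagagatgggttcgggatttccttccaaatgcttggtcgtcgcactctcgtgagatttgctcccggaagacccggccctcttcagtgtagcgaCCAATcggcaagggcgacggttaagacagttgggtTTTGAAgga

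In these stretches Mcm5 held an E2F spelling and 2 CCAAT matches, Cdk1 held an E2F spelling, 2 CCAAT matches and a TTTGAA, and Cdc20 held 1 CCAAT and 1 TTTGAA. Ccne1 held no match, which says only that these letters were not in this stretch. A match is a description of the sequence and not a site at which a factor was seen to bind.

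In PBS-injected wild-type skin at day 8 no member passed the test, with 2 at an unadjusted p under 0.05 and 1 called by DESeq2. Of all genes edgeR called 3.26% higher and 0.721% lower (3.99% in all), and 17.9% had an unadjusted p under 0.05. The member with the smallest p was Ccne1, at 5.19, 2.06 and 5.81 cpm with ethanol and 12.6 and 12.4 cpm with MC903 (log2 fold change 1.55, SE 0.42, adjusted p = 0.116). Both MC903 libraries were above the ethanol ones in Ccne1 and in 8 members in all, as in 20.1% of all genes. Ethanol replicate 2 stood apart: Mki67 was at 292, 61.98 and 324 cpm with ethanol and at 154 and 237 cpm with MC903. The level of the follicle markers was 9.39, 6.78 and 9.72 in the same 3 ethanol libraries, so the library with low Mki67 was also the one with low follicle markers. Without it 1 member was called.

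In aGr1-injected skin at day 8, 21 of the 40 members rose and 0 fell, where 15.1% of all genes were called higher and 17.5% lower. The median log2 fold change was 0.96 (1.05 for the G2 and mitosis members, 14 of 25 called, and 0.59 for the G1/S and replication members, 7 of 15 called), beside −0.02 over all genes. In 8 members the MC903 libraries were all above and in 0 all below, as in 22.4% and 7.34% of all genes.

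Ccne1 stood at 3.36, 2.16, 3.75 and 2.04 cpm with ethanol and at 10.7, 9.96, 11.7 and 8.72 cpm with MC903 (1.52, SE 0.16, adjusted p = 0.000182). E2f8, a repressor of the E2F family that is itself switched on in S phase, stood at 6.49, 5.08, 13.1 and 5.52 cpm with ethanol and at 34.6, 39.6, 33.8 and 24.6 cpm with MC903 (1.83, SE 0.21, adjusted p = 0.000329). Mcm5 stood at 17.5, 12.4, 31.7 and 10.8 cpm with ethanol and at 73.2, 70.8, 67.4 and 44.8 cpm with MC903 (1.53, SE 0.23, adjusted p = 0.00119). The groups did not overlap in these 3 genes, and ethanol replicate 3 was the highest of its group in each. Mki67 stood at 84.6, 47.9, 177 and 53.3 cpm with ethanol and at 236, 194, 183 and 97.7 cpm with MC903, with overlapping groups (0.69, SE 0.33, adjusted p = 0.137).

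Single libraries moved this count as well. It was 34 without ethanol replicate 3 and 31 without MC903 replicate 4, and 12 without any other single library. Ethanol replicate 3 had the highest follicle marker level of its group (8.47, against 6.81, 3.51 and 6.98). Follicle markers summed to 241 to 9780 cpm with ethanol and to 2224 to 3038 cpm with MC903, and 6 of 10 were called lower and 0 higher. The injury keratins summed to 315 to 1156 cpm with ethanol and to 15474 to 20335 cpm with MC903, with 4 of 4 called higher. Neutrophil markers summed to 7.06 to 22.1 cpm with ethanol and to 187 to 201 cpm with MC903 in these aGr1 libraries. All 5 of them that were tested were called higher.

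Whether the MC903 effect differed from that in uninjected or PBS-injected skin was tested as a difference. Against uninjected skin E2f8 was the 1 member of 40 with a larger effect (difference of log2 fold changes 1.24, SE 0.23, adjusted p = 0.0069) and 0 had a smaller one, where 1.2% of all genes were larger and 3.36% smaller. The median difference was 0.79, and 25 had an unadjusted p under 0.05, as did 20.2% of all genes. Without aGr1 ethanol replicate 3 the count was 25, without aGr1 MC903 replicate 4 it was 6, and without the uninjected ethanol libraries skin3 or cohort B replicate 3 it was 3 and 2. Against PBS-injected skin 0 members were called by edgeR in either direction, with 1 at an unadjusted p under 0.05 (10.5% of all genes) and a median difference of 0.63. There 0.00374% of all genes were larger and 0.228% smaller.

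In TSLPR.KO skin at day 8 no member passed, with 4 at an unadjusted p under 0.05, and DESeq2 called 0. Of all genes edgeR called 1.31% higher and 1.14% lower (2.45% in all), and 14.9% had an unadjusted p under 0.05. The median log2 fold change was 0.23, near the 0.22 of wild-type skin. Mki67 stood at 225 and 302 cpm with ethanol and at 188, 352 and 333 cpm with MC903. Ccne1 stood at 7.78 and 11.5 cpm with ethanol and at 11.8, 15.1 and 15.9 cpm with MC903, and its groups did not overlap. The same held for 10 members with MC903 above, as in 15.3% of all genes, and for 1, Kif23, with MC903 below, as in 16.6%. As a difference from the wild-type effect 0 members were called, with 4 at an unadjusted p under 0.05 (12.8% of all genes) and a median difference of 0.02, where 0.0111% of all genes were larger and 0.166% smaller.

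In TSLPR.KO skin at day 12 most members rose. The test called 34 of 40 higher and 0 lower, where 5.41% of all genes were called higher and 4.62% lower. In 37 members the MC903 libraries were all above the ethanol libraries, as in 14.6% of all genes. The median log2 fold change was 1.32, a 2.50-fold difference, with 1.43 for the G2 and mitosis members (24 of 25 called) and 0.83 for the G1/S and replication members (10 of 15 called). The members that did not pass were Ccne2, E2f1, Mcm6, Pcna, Tyms and Kif20a.

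Ccna2, cyclin A2, stood at 12.3, 19.2 and 15.3 cpm with ethanol and at 50.99, 53.7, 43.2 and 44.7 cpm with MC903 (1.44, SE 0.16, adjusted p = 0.000988). Cdc20 stood at 7.02, 11.9 and 9.31 cpm with ethanol and at 31.6, 33.01, 28.9 and 27.6 cpm with MC903 (1.5, SE 0.17, adjusted p = 0.00102). Ccnb1 stood at 7.31, 12.1 and 9.67 cpm with ethanol and at 35.3, 40.5, 29.9 and 29.9 cpm with MC903 (1.61, SE 0.18, adjusted p = 0.00107). The groups were far apart in each of these genes. Mki67 rose from 41.2, 65.2 and 68.6 cpm to 186, 236, 104 and 145 cpm (1.30, SE 0.30, adjusted p = 0.0286). Follicle markers summed to 4340 to 16481 cpm with ethanol and to 4285 to 12028 cpm with MC903, with 0 of 10 called, and 3 of 4 injury keratins were called higher (1344 to 2634 and 12964 to 20458 cpm). Blocking on the replicate number gave a count of 13, though the numbers did not pair these libraries.

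The largest changes were in BLT1.KO skin at day 8. The test called 38 of 40 higher and 0 lower, where 14.1% of all genes were called higher and 14.6% lower, and in 39 members the MC903 libraries were all above and in 0 all below, as in 22.9% and 19.9% of all genes. Over all 40 the median log2 fold change was 2.11, a 4.31-fold difference, beside −0.04 over all genes. All 25 G2 and mitosis members were called, with a median of 2.43, and 13 of 15 G1/S and replication members, with a median of 1.19. The 2 not called were E2f1 (0.20, adjusted p = 0.684) and Tyms (0.57, adjusted p = 0.0653).

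Ccnb1 stood at 10.2, 10.9 and 8.52 cpm with ethanol and at 76.1, 52.9 and 66.7 cpm with MC903 (2.68, SE 0.15, adjusted p = 1.55e-05). Bub1b, a spindle checkpoint kinase, stood at 5.32, 6.62 and 4.85 cpm with ethanol and at 36.9, 32.1 and 29.2 cpm with MC903 (2.51, SE 0.16, adjusted p = 2.43e-05). Kif20a, a kinesin of cell separation, stood at 4.13, 4.20 and 3.53 cpm with ethanol and at 24.3, 19.1 and 22.1 cpm with MC903 (2.43, SE 0.16, adjusted p = 2.69e-05). No groups overlapped. Mki67 rose from 48.6, 50.3 and 31.6 cpm to 257, 204 and 213 cpm (2.34, SE 0.18, adjusted p = 5.02e-05). The largest change was that of the checkpoint kinase Bub1, from 0.713, 1.45 and 1.39 cpm to 12.1, 12.3 and 13.3 cpm (3.38, SE 0.31, adjusted p = 0.000104), followed by Plk1 (3.29, SE 0.31, adjusted p = 0.00013). Mcm5 rose from 12.2, 16.8 and 15.6 cpm to 74.2, 64.97 and 77.1 cpm, and Rrm2 from 17.4, 26.4 and 31.6 cpm to 112.98, 91.5 and 127.6 cpm. Leaving out any 1 of the 6 libraries gave 37 or 38.

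Markers of other cell types moved in the same BLT1.KO libraries. Basal keratinocyte markers summed to 5178 to 5931 cpm with ethanol and to 17682 to 21327 cpm with MC903 (4 of 6 called higher and 1 lower), and the injury keratins to 881 to 1284 and 22099 to 31600 cpm (4 of 4 higher). Skeletal muscle markers summed to 16749 to 28970 cpm with ethanol and to 2621 to 6847 cpm with MC903 (4 of 4 lower), adipocyte markers to 936 to 1077 and 202 to 284 cpm (4 of 4 lower) and fibroblast markers to 12358 to 21381 and 7724 to 10759 cpm (3 of 4 lower and 1 higher). None was at 0 throughout, and their part in the members' changes was not tested.

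The effect in BLT1.KO skin was larger than that in wild-type skin in 36 of 40 members and smaller in 0, where 4.35% of all genes were larger and 2.6% smaller. The median difference was 1.98 on the log2 scale. All 25 G2 and mitosis members had a larger effect (median 2.13) and 11 of 15 G1/S and replication members (median 0.90). E2f1, Mcm6, Pcna and Tyms were not called. For Bub1 the difference was 3.37 (SE 0.28, adjusted p = 6.86e-06), and for Mki67 it was 2.69 (SE 0.27).

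To see in which treatment the groups differed, ethanol libraries were compared with ethanol libraries and MC903 libraries with MC903 libraries at day 8, a choice made after the values had been seen. These 6 comparisons share the uninjected wild-type libraries of both cohorts, and their fits had no cohort term. BLT1.KO ethanol skin was lower than wild-type ethanol skin in 39 of 40 members and higher in 0, where 12.6% of all genes were lower and 12.1% higher. Mean Mki67 was 43.5 ± 10.4 cpm (SD, n = 3) against 276 ± 64.8 cpm (n = 6), a log2 difference of −2.62 (SE 0.26), and Ccnb1 was 9.90 ± 1.24 against 53.9 ± 6.91 cpm (−2.39, SE 0.17). E2f1 was the exception, at 9.93 ± 3.28 and 11.3 ± 1.11 cpm. Skeletal muscle markers summed to 16749 to 28970 cpm in the BLT1.KO ethanol libraries and to 2802 to 13196 cpm in the wild-type ones, and their part in this difference was not tested. In MC903 skin 0 members differed between BLT1.KO and wild-type by edgeR, with 3 at an unadjusted p under 0.05 (16% of all genes), where 0.137% of all genes were higher and 0.0312% lower. There Mki67 was 225 ± 28.6 and 219 ± 66.1 cpm, and Ccnb1 65.2 ± 11.7 and 65.99 ± 3.56 cpm, with a median log2 difference over the members of 0.02.

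The aGr1 libraries stood lower than the uninjected ones in both treatments. In ethanol skin 35 members were lower and 1, Tyms, was higher, with a median of −1.26, where 22.5% of all genes were lower and 21.8% higher. In MC903 skin 21 were lower and Tyms again was higher, with a median of −0.51, where 18.3% of all genes were lower and 18.2% higher. Rrm2 was at 45.3 ± 12.8 cpm in aGr1 MC903 skin (n = 4) and at 111 ± 21.1 cpm in uninjected MC903 skin (n = 5), a log2 difference of −1.34 (SE 0.22, adjusted p = 0.000801). Tyms was at 30.3 ± 1.22 against 17.6 ± 2.05 cpm (0.76, SE 0.12, adjusted p = 0.000486). The PBS-injected libraries, not tested here against uninjected ones, stood alongside the aGr1 ones in both genes: Rrm2 at 35.7, 17.3 and 42.6 cpm with ethanol and 47.7 and 51.7 cpm with MC903, and Tyms at 29.7, 30.9 and 39.0 cpm and 41.6 and 37.2 cpm. TSLPR.KO skin differed from wild-type in 0 members in either treatment by edgeR, with 0 (ethanol) and 6 (MC903) at an unadjusted p under 0.05, where 4.31% and 16.1% of all genes passed that level. Of all genes 0.0158% were higher and 0.00394% lower in its ethanol skin, and 0.0355% and 0.0906% in its MC903 skin. The labels do not say whether these groups came from the same or separate experiments, so genotype or injection and experiment cannot be told apart.

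**Figure D4:**
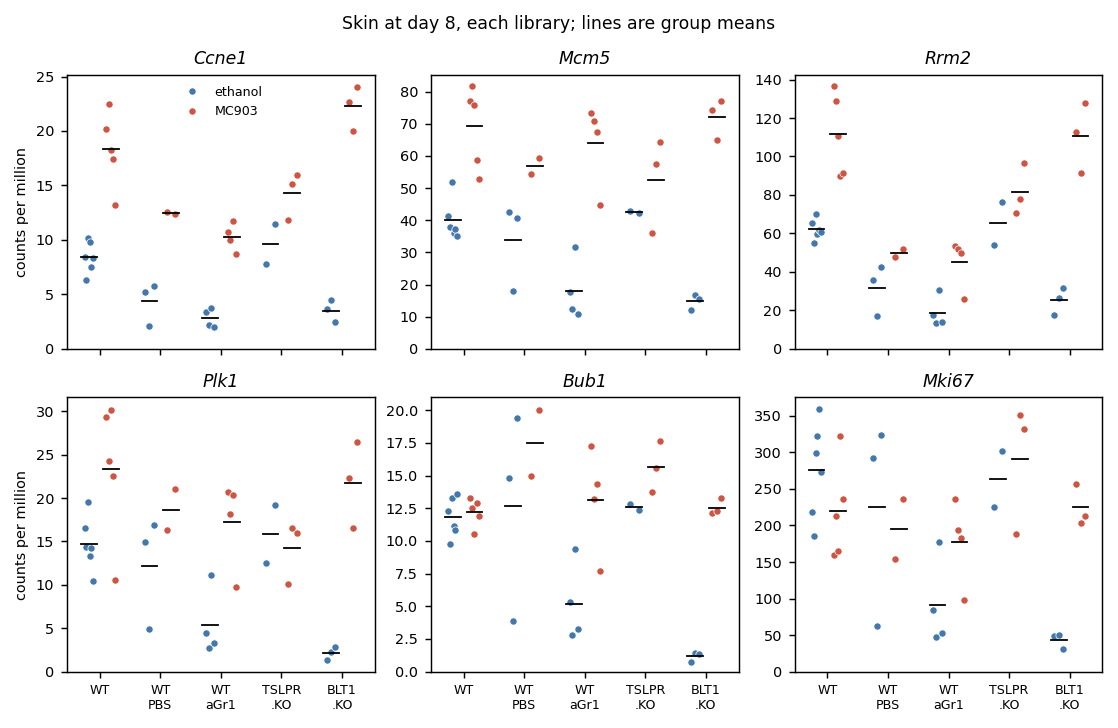
Level in cpm of 6 members in each skin library of day 8, by group (uninjected, PBS-injected and aGr1-injected wild-type, TSLPR.KO and BLT1.KO), with blue points for ethanol, red points for MC903 and lines at group means. The BLT1.KO ethanol libraries lie at 31.6 to 50.3 cpm for Mki67, below all uninjected wild-type libraries (lowest 160 cpm), while the BLT1.KO MC903 libraries lie among the wild-type ones.

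Across ethanol skin libraries the members moved with the markers of growing hair follicles. Over the 30 ethanol libraries the follicle level (10 genes, mean log2(cpm + 0.5)) ran from 1.19 to 10.3. Its correlation with the level of the G2 and mitosis members was r = 0.83 (rho = 0.84) and with that of the G1/S and replication members r = 0.72 (rho = 0.76). The points share groups, libraries and total counts, so these values are a description. Over the 31 MC903 libraries r was 0.58 (rho = 0.51) for the G2 and mitosis members and 0.25 (rho = 0.13) for the others. For the 6 basal keratinocyte markers r was 0.57 with the G1/S and replication members in MC903 skin (rho = 0.53) and 0.57 in ethanol skin (rho = 0.39), and with the G2 and mitosis members 0.29 (rho = 0.24) and 0.41 (rho = 0.30). For the 4 leukocyte markers r ran from −0.56 to −0.50 in ethanol skin and from −0.02 to 0.34 in MC903 skin.

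The BLT1.KO ethanol libraries had follicle levels of 1.19, 4.65 and 2.85, all under the 9.10 to 10.3 of uninjected wild-type ethanol libraries of day 8, and G2 and mitosis levels of 2.79, 3.05 and 2.86 against 4.84 to 5.37. In BLT1.KO skin the 10 follicle markers summed to 66.8 to 1145 cpm with ethanol and to 3182 to 7842 cpm with MC903, 2 of 10 were called higher and 0 lower, and none was at 0 throughout. The TSLPR.KO ethanol libraries of day 12 had higher follicle levels, of 6.67, 8.72 and 8.4, with G2 and mitosis levels of 2.94, 3.59 and 3.34. The MC903 replicates 2 and 3 of aGr1-injected skin had follicle levels of 5.06 and 3.84 with G2 and mitosis levels of 4.77 and 4.78. The part of follicle growth stage in the ethanol levels was not tested.

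**Figure D5:**
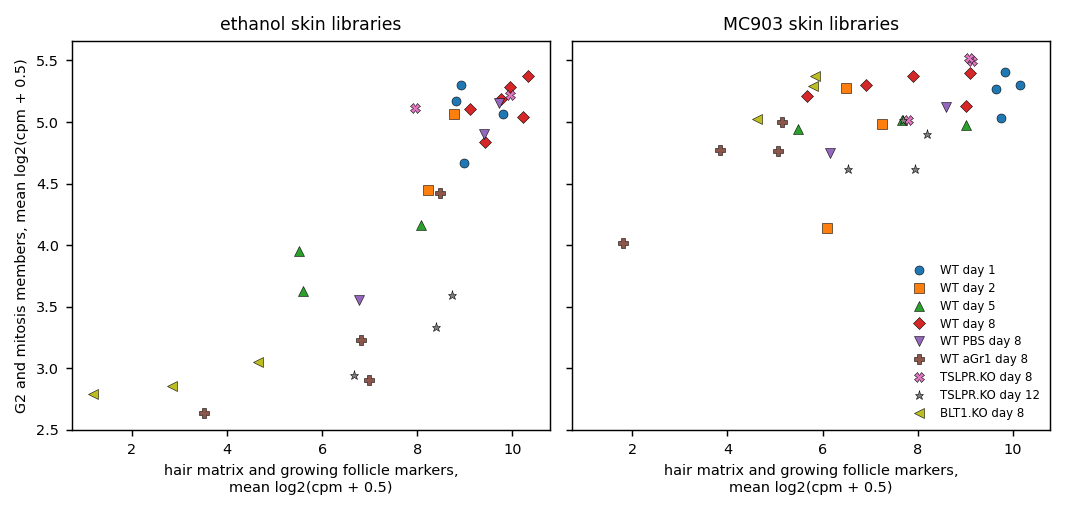
Level of the 25 G2 and mitosis members (vertical axis) against the level of 10 markers of the hair matrix and growing follicle (horizontal axis), both as mean log2(cpm + 0.5), for 30 ethanol skin libraries (left) and 31 MC903 skin libraries (right), with a symbol for each group. With ethanol the levels climb together (r = 0.83), while with MC903 all but 2 libraries lie between 4.62 and 5.52.

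In trigeminal ganglia 3 calls were made in 8 comparisons, at an adjusted p under 0.1. In PBS-injected mice Tk1 stood at 3.08, 2.93 and 4.003 cpm with ethanol and at 5.97, 5.53, 4.71 and 7.03 cpm with MC903 (0.80, SE 0.17, adjusted p = 0.027), where 1.91% of all genes were called higher. In aGr1-injected mice Cdc20 stood at 0.857, 0.921, 0.662 and 0.711 cpm with ethanol and at 1.74, 1.66, 1.62 and 2.39 cpm with MC903 (1.25, SE 0.25, adjusted p = 0.0269). Bub1b stood at 3.62, 2.42, 2.04 and 3.72 cpm with ethanol and at 2.95, 11.9, 7.15 and 6.94 cpm with MC903 (1.30, SE 0.33, adjusted p = 0.0897). The groups did not overlap for Tk1 and Cdc20 and did for Bub1b. The Tk1 call was lost without ethanol replicate 1 or 2 (adjusted p = 0.118 and 0.174, edgeR) and the Cdc20 call without MC903 replicate 4 or ethanol replicate 3 (0.1 and 0.124), while the Bub1b call held only without MC903 replicate 1. In all, 0.875% of all genes were called higher in aGr1 ganglia. In the other 6 ganglion comparisons edgeR and DESeq2 both called 0 members, with 0 to 6 at an unadjusted p under 0.05 (3.86% to 8.06% of all genes), and edgeR called 0% to 0.304% of all genes. In uninjected ganglia of day 2 the count was 7 without ethanol replicate 2, which leaves 1 ethanol library, and in TSLPR.KO ganglia of day 8 it was 1 without MC903 replicate 2, which leaves 1 MC903 library. A lone library is assumed to vary like the other arm. The highest member level in ganglia, 2.62, was in a day 1 MC903 library that also held the highest follicle marker level of any ganglion library, 5.51. The TSLPR.KO MC903 replicate 1 of day 8 (member level 1.99) held the next highest, 4.57. In the other ganglion libraries the follicle level was at most 3.22, and the part of skin RNA in these ganglia was not tested.

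In spinal cord Mcm2, a further subunit of the helicase, was lower with MC903 in both larger comparisons. In uninjected mice it stood at 7.36, 7.05, 7.29, 7.56 and 6.99 cpm with ethanol and at 4.89, 5.34, 4.80 and 5.13 cpm with MC903 (−0.53, SE 0.12, adjusted p = 0.0128). In aGr1-injected mice it ran from 6.42 to 7.59 cpm in 6 ethanol libraries (median 7.28) and from 3.78 to 6.37 cpm in 8 MC903 libraries (median 5.10; −0.44, SE 0.10, adjusted p = 0.00481). Neither pair of groups overlapped. In PBS-injected mice Mcm2 stood at 5.17 and 5.92 cpm with ethanol and 4.62 and 5.29 cpm with MC903, and 0 members were called by edgeR, with 8 at an unadjusted p under 0.05 (6.39% of all genes) and 1 called by DESeq2, where edgeR called 0% of all genes. Without MC903 replicate 2 that count was 9, without MC903 replicate 1 it was 2, and without either ethanol replicate it was 1. Each of these fits leaves 1 library in an arm, which is assumed to vary like the other arm.

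Bub1b went the other way in cord. In uninjected mice it stood at 2.46, 3.07, 1.94, 3.24 and 2.26 cpm with ethanol and at 4.95, 4.94, 4.40 and 3.01 cpm with MC903 (0.73, SE 0.20, adjusted p = 0.0258), with 1 overlap. In aGr1-injected mice it ran from 5.22 to 8.25 cpm with ethanol (median 5.71) and from 6.46 to 12.6 cpm with MC903 (median 9.54; 0.64, SE 0.15, adjusted p = 0.00795), and the groups overlapped. Rrm1 was also lower in uninjected mice (41.99, 30.7, 31.6, 29.9 and 32.2 cpm with ethanol and 23.1, 25.6, 25.4 and 22.4 cpm with MC903; −0.48, SE 0.13, adjusted p = 0.0268). In aGr1-injected mice Mcm7 was higher (median 12.6 and 15.2 cpm, 0.30, adjusted p = 0.0089) and Mcm3 (4.07 and 2.76 cpm, −0.40, adjusted p = 0.0389) and Tpx2 (4.02 and 2.92 cpm, −0.42, adjusted p = 0.0328) were lower. In all this made 1 of 40 members higher and 2 lower in uninjected cord, where 5.05% of all genes were higher and 7.14% lower, and 2 higher and 3 lower in aGr1 cord, where the shares were 4.54% and 6.79%. Without ethanol replicate 1 the uninjected count was 13, without MC903 replicate 3 it was 6, and without MC903 replicate 1 or ethanol replicate 3 it was 1. The aGr1 count was 9 without MC903 replicate 1, which held the highest member level in cord (2.08), and 3 without any of MC903 replicates 2, 3, 5, 7 and 8 or ethanol replicates 4, 5 and 6. The calls of Mcm3 and Tpx2 were lost without any of those 8 libraries, that of Mcm3 also without ethanol replicate 2 and that of Tpx2 without ethanol replicate 3. In uninjected cord the Bub1b call was lost without MC903 replicate 1, 2 or 3 or ethanol replicate 3 or 5, and the Rrm1 call without MC903 replicate 1, 2 or 4 or ethanol replicate 3.

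Further genes of cell division were counted as well. Of 50 others on a separate list (origin licensing, replication forks, cytokinesis and repair), 0 were called higher at day 2, 16 at day 5 and 12 at day 8 in uninjected wild-type skin. Of all genes 0%, 8.15% and 12.2% were called higher there. The counts were 28 in aGr1-injected skin (15.1% of all genes), 43 in TSLPR.KO skin at day 12 (5.41%) and 45 in BLT1.KO skin (14.1%). In aGr1 skin 1 was called lower and in BLT1.KO skin 1 (17.5% and 14.6% of all genes). In PBS-injected and TSLPR.KO day 8 skin 0 were called higher (3.26% and 1.31% of all genes). The medians were 0.72 at day 5, 0.18 at day 8 and 1.71 in BLT1.KO skin. With the smallest p at day 8, Anln, the anillin of the contractile ring, rose from 40.6 ± 5.98 to 62.2 ± 6.27 cpm (0.65). The licensing inhibitor geminin, Gmnn, rose from 21.6 ± 4.31 to 42.7 ± 12.8 cpm (0.92), and Gins1 of the replicative helicase from 2.59 ± 0.561 to 5.13 ± 1.04 cpm (0.95).

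The regulators upstream of S phase were counted in the same way. Of 9 G1 cyclins, kinases and E2F activators, 4 were called higher and 1 lower at day 1 (5.51% and 7.47% of all genes). Myc rose from 28.4 ± 4.26 to 46.4 ± 5.48 cpm (0.67, adjusted p = 0.00422), the cyclin Ccnd1 from 96.0 ± 16.1 to 129.4 ± 14.9 cpm (0.40, adjusted p = 0.0199) and E2f3 by 0.45 (adjusted p = 0.031), while the cyclin Ccnd3 fell from 49.3 ± 12.5 to 31.8 ± 2.85 cpm (−0.67, adjusted p = 0.0119). At day 8, 2 were higher and 4 lower (12.2% and 11.2% of all genes). Cdk6, a kinase that pairs with D cyclins, rose from 54.6 ± 8.88 to 168 ± 32.5 cpm (1.65, adjusted p = 2.52e-06) and Myc by 0.72, while Ccnd2 (−0.93), Ccnd1 (−0.66) and E2f2 (−0.69) fell. Ccnd1 was thus called higher at day 1 and lower at day 8, and its test of the difference between these days is not reported here.

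Of 17 cell-cycle inhibitors and pocket proteins 4 were higher and 0 lower at day 1, where 5.51% and 7.47% of all genes were. The stress-response genes Gadd45b (16.7 ± 2.13 to 34.96 ± 5.42 cpm, 1.02, adjusted p = 0.000451) and Gadd45a (0.81, adjusted p = 0.00516) and the antiproliferative gene Btg2 (0.45, adjusted p = 0.015) had the smallest p. At day 8, 4 were higher and 2 lower, where 12.2% and 11.2% of all genes were. E2f4 (0.53), the p19 inhibitor Cdkn2d (0.65) and Cdkn2a (1.79, from 0.0999 ± 0.0499 to 0.353 ± 0.0969 cpm) rose, and the p27 and p57 inhibitors Cdkn1b (−0.38) and Cdkn1c (−0.66) fell. Cdkn1a, which codes for p21, did not pass at either day, at 246 ± 57.9 and 300 ± 38.7 cpm at day 1 (0.24, adjusted p = 0.359) and 296 ± 39.3 and 246 ± 33.6 cpm at day 8 (−0.26, adjusted p = 0.225).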

How the data were processed

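Poly(A) RNA was sequenced as single-end reads of 50 bases. Per the methods, the authors aligned reads to mm10 with Bowtie2 and TopHat and counted them per gene with HTSeq. The deposited values were whole-number read counts per gene, not normalized, with the annotation release and strand setting not given in the sources used here. Of 46078 genes 45143 were matched to a symbol through GENCODE M21, and 5 tally lines per file were left out of library sizes (reads on no gene were 6.15% to 21.5% of the counted reads in a library). Groups were taken from the labels. The 18 wild-type libraries labelled day 12 were left out. The members and all lists were chosen with earlier results of these data known.

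Counts were tested with the quasi-likelihood F test of edgeR 4.0.16 in R 4.3.3, with TMM factors, over genes with at least 10 counts in the libraries fitted. A fit held the libraries of its comparison only. Fits of the MC903 effect, and of its difference between groups, had a cohort term where uninjected wild-type skin or ganglia of day 8 entered. The comparisons within a treatment had no cohort term. P-values were adjusted by Benjamini-Hochberg over all genes tested, with thresholds of 0.05 for skin and cord and 0.1 for ganglia. There were 20 comparisons of MC903 with ethanol, 7 differences of effects and, added after the values were seen, 6 comparisons within a treatment. Values in cpm were computed from counts on genes without TMM, and levels used a pseudocount of 0.5. All 40 members may be named. Values in every library were given for Mki67, Top2a, Ccnb1, Mcm5, Rrm2 and E2f1 in uninjected wild-type skin and for at most 3 called members per direction with the smallest p elsewhere. Other library values (such as Ccne1, Plk1, Tyms and Bub1) were chosen after they were seen. Of the other cell-cycle lists at most 3 genes per direction were named. A result on one of these lists at day 1 is not reported here.

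Alternatives were RLE factors, DESeq2 1.42.0 (Wald test), other filters, cohorts apart, a replicate block and leaving out each library. The study's DESeq was not run. Replicate numbers paired the libraries only in ganglia of wild-type mice at day 5 (correlations of 0.144 to 0.337 between same-numbered libraries) and of TSLPR.KO mice at day 12 (0.217 to 0.589), from the data and not the labels. No 2 of 220 pairs of libraries of a group agreed within sampling noise (lowest chi-square per gene 2.53). On simulated counts with 100 genes changed by 2 on the log2 scale, the test recovered 96 in the day 1 design, 0 at day 2, 79 at day 5, 99 at day 8, 92 with aGr1, 80 in BLT1.KO and 63 with PBS. Of 100 genes changed by 1 it recovered 64, 0, 9, 69, 27, 18 and 1 in the same order. In the TSLPR.KO designs it recovered 11 at day 8 and 31 at day 12. Changes of that size were thus often missed on simulated counts. Few genes were changed there, while in the data 0% (day 2) to 32.6% (aGr1) of all genes were called in a skin comparison. The adjusted threshold depends on that share, so recovery in the data may differ. With total counts of 15931871 to 67342879 per library, genes under 1 cpm rest on few reads.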

Additional observations from a re-analysis of the deposited data

Results flagged for a closer look

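Of 20 groups tested for a library that stands apart in its member level, 3 held one, where chance gives about 1 in 20. In spinal cord of aGr1-injected mice, MC903 replicate 1 had a member level of 2.08, against 1.48 to 1.68 in the other 7. Its leukocyte marker level was 4.36, against 3.58 to 4.18. In ganglia of PBS-injected mice, MC903 replicate 3 stood at 1.41, against 1.59 to 1.63 in the others. In ganglia of aGr1-injected mice, ethanol replicate 4 stood at 1.62, against 1.53 to 1.55.

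The MC903 effect on skin differed in at least 1 member, by a test of the difference itself, in 5 pairs of groups. It was larger in BLT1.KO than in wild-type skin of day 8 in 36 of 40 members (4.35% of all genes). It was larger in aGr1-injected than in uninjected skin in 1, E2f8 (1.2% of all genes), a count near that share. At day 5 it was larger than at day 1 in 14 members (7.28% of all genes). At day 8 it was larger than at day 1 in 5 and smaller in 1, where 11.2% and 8.58% of all genes were. The first count was near its share and the second under it. It was smaller at day 8 than at day 5 in 4 (0.916% of all genes).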

How the results depend on the processing

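RLE factors, DESeq2 and other filters kept the counts of members called higher at 17 to 20 (day 5), 21 to 29 (aGr1), 38 to 39 (BLT1.KO) and 34 to 37 (TSLPR.KO, day 12). Elsewhere counts were small and moved more; the causes were not tested.

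At day 1 the count higher was 3 by DESeq2, 2 with filterByExpr and 0 in 1 fit over days 1 to 8. At day 8 the count lower was 2 by DESeq2 and with filterByExpr, and 0 without the cohort term, within either cohort and in the 1 fit. The count higher was 3 in cohort B alone. DESeq2 called 1 member in PBS skin, 9 in uninjected cord and 1 in PBS cord. Without a filter 1 was called in ganglia of day 8, 3 in PBS ganglia and 1 in PBS cord, and 2 effects were larger with aGr1 than uninjected (0 against cohort B). Against cohort B, aGr1 MC903 skin was lower in 13 and BLT1.KO MC903 skin higher in 1.

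A replicate block gave counts of 3 higher and 3 lower in cohort B skin, 13 in TSLPR.KO skin of day 12, 5 in PBS ganglia, 1 in aGr1 ganglia, 0 in uninjected cord, 2 in PBS cord and 3 in aGr1 cord. In PBS cord a crossed pairing, chosen after seeing the data (same-number correlation −0.38), gave 4. The block changed no call in ganglia of day 5 and of TSLPR.KO day 12, where the numbers pair the libraries. The member level difference was 0.75 (G1/S and replication) at day 5, 2.33 (G2 and mitosis) and 1.28 (G1/S and replication) in BLT1.KO and 1.01 (G1/S and replication) in TSLPR.KO day 12 skin, when taken over 1 class alone.

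Leaving out 1 library gave, for members higher in skin, 0 to 2 at day 1, 9 to 33 at day 5, 9 to 10 at day 8 (lower, 0 to 2), 0 to 1 with PBS, 12 to 34 with aGr1, 37 to 38 in BLT1.KO and 24 to 36 in TSLPR.KO day 12. Ganglia gave 0 to 7 at day 2, 0 to 4 with PBS, 0 to 2 with aGr1 and 0 to 1 in TSLPR.KO day 8. Cord gave 1 to 13 uninjected, 1 to 9 with PBS and 3 to 9 with aGr1. Differences of effects gave 1 to 25 (aGr1), 32 to 37 (BLT1.KO), 4 to 6 larger and 1 to 2 smaller (day 8 against 1), 0 to 18 (day 8 against 5) and 10 to 30 (day 5 against 1). Within treatments aGr1 gave 31 to 38 lower (ethanol), and 17 to 23 lower and 1 to 2 higher (MC903), and BLT1.KO ethanol 33 to 38 lower.

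Signs turned in genes at days on which they were not called. At day 1 E2f1 ran from −0.19 to 0.0079 (positive without ethanol replicate 3). At day 2 E2f1 ran from −0.25 to 0.045 (positive without ethanol replicate 1, 0.0011, or MC903 replicate 1), Mki67 from −0.52 to 0.52 (also −0.05 without ethanol replicate 2), Top2a from −0.30 to 0.60 and Ccnb1 from −0.27 to 0.57; these 3 were lowest without MC903 replicate 1.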

Other observations

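Growth factors of keratinocytes moved at day 1, when 1 of the 40 cell-cycle members was called. In uninjected wild-type skin of day 1, 2 of 12 growth factor and receptor genes were called higher and 2 lower (5.51% and 7.47% of all genes). Epgn, the EGF receptor ligand epigen, stood at 6.39 ± 1.99 cpm with ethanol and 36.3 ± 8.71 cpm with MC903 (2.46 on the log2 scale, adjusted p = 0.000239, edgeR) and Areg, amphiregulin, rose from 6.43 ± 0.271 to 13.4 ± 1.95 cpm (1.01, adjusted p = 0.00168). The ligands Btc (24.5 ± 2.66 to 9.26 ± 2.30 cpm, −1.46, adjusted p = 0.000401) and Ereg (25.1 ± 2.26 to 13.9 ± 1.81 cpm, −0.91, adjusted p = 0.00307) fell.

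At day 8, 3 were higher and 3 lower (12.2% and 11.2% of all genes). Epgn stood at 9.48 ± 1.61 cpm with ethanol and 103 ± 29.4 cpm with MC903 (3.48, adjusted p = 4.77e-09), Areg at 7.54 ± 0.852 and 30.4 ± 5.89 cpm (2.02, adjusted p = 1.75e-06) and Hbegf at 11.3 ± 1.27 and 87.6 ± 40.5 cpm (2.93, adjusted p = 7.99e-06), while Fgf10 (−1.24), Fgfr2 (−0.87) and Btc (−1.31) fell. In TSLPR.KO skin of day 8, where 0 members were called, 3 of the 12 were called higher and 1 lower (1.31% and 1.14% of all genes). In BLT1.KO skin 5 were called higher and 4 lower (14.1% and 14.6% of all genes).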
